A study of Mus musculus with 6 samples.

Results

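The mouse mitochondrial genome (mtDNA) is a small circular DNA, and its transcripts were taken here as every gene placed on that chromosome in the table of gene levels. The rule gave 37 of 54532 genes. They comprised 13 mRNAs, 2 rRNAs and 22 tRNAs. All 37 had the start, end and strand that the GENCODE M21 annotation of the mouse genome build GRCm38 gives. Of the mRNAs, 12 lie on the plus strand and 1, mt-Nd6, on the minus strand, and of the tRNAs 14 lie on the plus and 8 on the minus strand.

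RNA-seq was run on 6 libraries of brain endothelial cells, live cells sorted as CD31+, CD45- and PDGFRb- from mice of 12 to 16 weeks. All mice carried Df(h22q11)/+, a heterozygous deletion, so both groups share it, and wild-type mice were not analysed here. The untreated group ate irradiated base chow, and the bezafibrate group ate chow with 0.5% bezafibrate, a lipid-lowering fibrate and PPAR agonist, for 4 weeks. Each library pooled 3 brains of the same sex, so replicates are pools of separate animals, and their spread is what the tests measure. The untreated pools are F_1, F_2 (female) and M_1 (male), and the bezafibrate pools are F_1 (female), M_1 and M_2 (male). Where 3 values are given for a group, they stand in that order.

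Both strands of mtDNA are transcribed into long RNAs that are cut into mRNAs, rRNAs and tRNAs, many of them at tRNAs that sit between the other genes. The mRNAs encode subunits of the respiratory complexes I, III, IV and V, which also hold subunits made from nuclear genes, and the rRNAs and tRNAs serve the translation of those mRNAs inside the organelle. Brain endothelial cells form the blood-brain barrier and are known for a high content of mitochondria compared with many other endothelia. Pieces of mtDNA have also been copied into the nuclear chromosomes, where annotations list them as pseudogenes.

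The sequences below, from the GENCODE M21 transcripts of GRCm38, show how tightly the mRNAs are packed. The frame of mt-Atp8 runs into that of mt-Atp6 for 43 bases, and that of mt-Nd4l into mt-Nd4 for 7, so reads there belong to both genes of a pair. Capitals mark the shared bases in chrM:7912-7984 and chrM:10147-10193, plus strand.

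mt-Atp8 to mt-Atp6: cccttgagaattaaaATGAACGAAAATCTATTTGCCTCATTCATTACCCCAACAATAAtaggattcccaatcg

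mt-Nd4l to mt-Nd4: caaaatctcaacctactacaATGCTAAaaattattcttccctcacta

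In 3 of the 13 mRNAs the annotated length is no multiple of 3, and the last base stands alone. The stop codon of such mRNAs is known to be completed by the poly(A) tail. The last bases of mt-Co3 (chrM:9367-9390), mt-Nd4 (chrM:11521-11544) and mt-Cytb (chrM:15265-15288) are shown with the lone base in capitals.

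mt-Co3: tctccatttattgatgaggatctT

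mt-Nd4: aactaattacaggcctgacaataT

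mt-Cytb: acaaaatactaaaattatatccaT

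The mRNAs also differ in base composition by strand. All 12 plus-strand mRNAs held more C (22.1% to 30.0%) than G (5.88% to 16.1%), whereas mt-Nd6 held 28.1% G and 5.97% C.

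Part of mtDNA has a nuclear copy that shares sequence with several of the mRNAs. On chromosome 1, 7 annotated pseudogenes (Gm29216, Gm28661, Gm10925, Gm28437, Gm28438, Gm10222 and Gm28439) lie in a row on the minus strand, chr1:24611535-24616197. They are collinear with chrM:6381-11042, a stretch of 4662 bases, and 4142 of their 4149 aligned bases are identical to it. Of the 7 differences, 6 lie at the outer end of Gm29216, T1056A, C1057T, A1059G, A1060G, C1062A and A1066T, counted from the first base of mt-Co1, with the mtDNA base first. The last one is T3C in Gm28438, counted from the first base of mt-Nd3. The first 75 bases of Gm29216 (chr1:24616123-24616197) and the mt-Co1 bases they align with (chrM:6381-6455) are shown with the differing bases in capitals.

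mt-Co1: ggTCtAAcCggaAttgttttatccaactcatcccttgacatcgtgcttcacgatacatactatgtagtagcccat

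Gm29216: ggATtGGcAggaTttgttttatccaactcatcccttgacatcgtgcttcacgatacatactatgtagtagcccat

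At the other end the copy stops inside mt-Nd4, after base 876 of that gene. The junction (chrM:11013-11072) is shown with the copied bases in capitals, beside the last 30 bases of Gm28439 (chr1:24611535-24611564, minus strand).

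mt-Nd4: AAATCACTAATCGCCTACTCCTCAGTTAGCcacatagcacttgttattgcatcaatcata

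Gm28439: AAATCACTAATCGCCTACTCCTCAGTTAGC

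Between these ends the aligned bases match without a difference in 5 of the 7 pseudogenes, which stop up to 3 bases short of the mtDNA gene or end inside it, as in the first 60 bases of mt-Co2 (chrM:7013-7072) and of Gm28661 (chr1:24615506-24615565).

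mt-Co2: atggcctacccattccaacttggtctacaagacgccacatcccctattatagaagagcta

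Gm28661: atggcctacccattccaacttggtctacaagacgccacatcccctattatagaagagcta

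The stretch holds 6 mRNAs whole (mt-Co2, mt-Atp8, mt-Atp6, mt-Co3, mt-Nd3 and mt-Nd4l) and 5 tRNAs, and parts of mt-Co1 and mt-Nd4. The other 5 mRNAs, both rRNAs and 17 tRNAs lie outside it. A read of 75 bases that occurs in both cannot be told apart, and the sources used here do not say how reads with several matches were counted.

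Levels are FPKM, fragments per kilobase of gene scaled by the size of the library, as the authors deposited them. Multiplied by gene length they fell on whole reads for 100% of values at a tolerance of 0.01 reads, which gave 16858130 to 20228619 reads per library and let the reads behind each value be stated. On the first principal component of all genes tested, 2 pools (untreated M_1 and bezafibrate F_1) separated from the others, and results were also computed without them. The 15 endothelial markers summed to 8965 to 14088 FPKM and none was at 0, against 424 to 1039.9 for 10 oligodendrocyte markers (93.5 to 156 without Mal), 246.99 to 387 for 11 pericyte and smooth muscle, 30.8 to 67.1 for 10 astrocyte and 19.1 to 27.2 for 10 neuronal markers, where none was at 0 in every library either. Genes that reached an FPKM of 1 in 3 or more libraries were tested with limma on log2(FPKM + 1), and a gene was called at a Benjamini-Hochberg adjusted p under 0.05 over all 11277 genes tested. Differences on that scale understate the change of low genes.

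Along mtDNA the levels of the mRNAs fell into a high and a low set that followed the chromosome 1 copy. The 7 mRNAs outside or partly inside it had mean levels of 666 to 6742 FPKM over the 6 libraries, and the 6 wholly inside it 1.33 to 120.9 FPKM. The lowest of the first set, mt-Nd6, was 5.50 times the highest of the second, mt-Co2, and above it in 6 of 6 libraries. The 6 inside genes together gave 0.618% to 0.878% of the mtDNA mRNA reads of a library. Subunits of one complex were split between the sets, as with mt-Co1 at 6742 FPKM against mt-Co2 at 120.9 and mt-Co3 at 39.4.

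**Figure D1:**
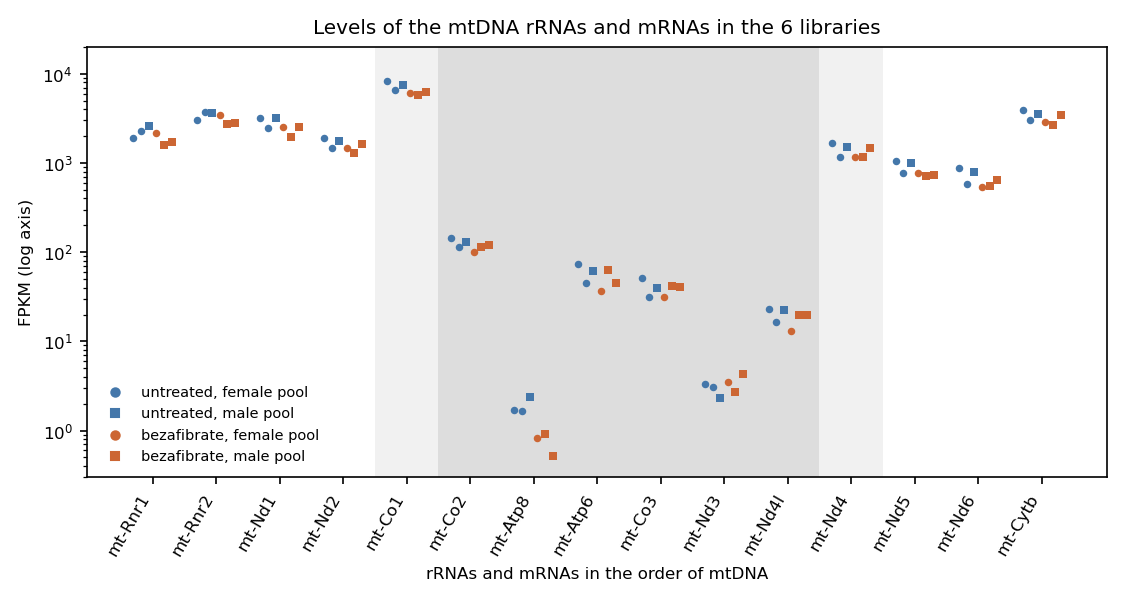
FPKM (log axis) of the 2 rRNAs and 13 mRNAs in the order of mtDNA, with a point per library, blue for untreated and orange for bezafibrate, circles for female and squares for male pools. Dark grey marks genes wholly inside the stretch copied to chromosome 1 and light grey genes partly inside it; the 6 inside genes lie at means of 1.33 to 120.9 FPKM and the others at 666 and above.

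The share of sequence in common with other transcripts was counted in windows of read length. In mt-Co2, 607 of 610 windows of 75 bases also occurred in another annotated transcript, in mt-Atp6 604 of 607, in mt-Co3 709 of 710, in mt-Nd3 268 of 274 and in mt-Nd4l 220 of 223. In mt-Co1, 39.8% of windows were shared, partly through the chromosome 2 pseudogene Gm13340, and in mt-Nd4 61.5%. Outside the stretch the share was 0 in mt-Nd1, mt-Nd6, mt-Cytb and both rRNAs, 5.71% in mt-Nd2 and 1.66% in mt-Nd5. mt-Atp8 was the exception inside the stretch, with 0 of 130 windows shared. Its last 43 bases, shared with mt-Atp6, align with Gm10925 but are too few for a window of 75. By collinearity the rest of its counterpart would lie between Gm28661 and Gm10925, in no annotated transcript. That sequence was not read, since only annotated transcripts were searched. Multi-mapping as a source of the low levels was not tested.

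Reads were also listed under the copies themselves. Gm28661 averaged 1.08 times the level of mt-Co2, Gm10925 1.15 times that of mt-Atp6, Gm10222 1.09 times that of mt-Nd4l and Gm28437 0.739 times that of mt-Co3. Gm28438 exceeded mt-Nd3, at a mean of 35.7 FPKM against 3.19, a ratio of 11.2. For the genes only partly inside, the copies stood far lower, at 0.0125 of mt-Nd4 for Gm28439 and 0.00458 of mt-Co1 for Gm29216. One value departed from the rest, as Gm28661 had 293 FPKM in untreated M_1 and 77.3 to 116.1 in the other 5 libraries, while mt-Co2 had 129 and 100.8 to 144. Gm28661 lay below mt-Co2 in each of those 5. Its ratio to mt-Co2 ran from 0.668 to 2.26, so the value of 1.08 rested on untreated M_1.

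**Figure D2:**
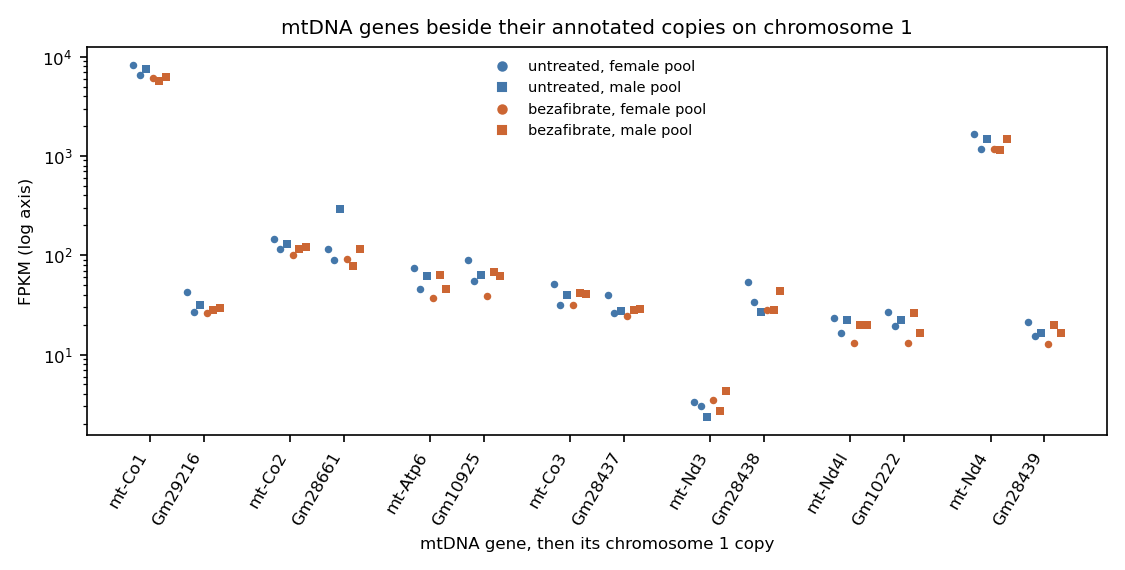
FPKM (log axis) of 7 mtDNA mRNAs, each followed by its annotated chromosome 1 copy, with a point per library (blue untreated, orange bezafibrate, circles female and squares male pools). Gene and copy lie at like levels for mt-Co2, mt-Atp6, mt-Co3 and mt-Nd4l, the copy is the higher of the pair for mt-Nd3, and mt-Co1 and mt-Nd4 lie far above their copies.

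The order of the levels depended on which windows were counted. By FPKM it ran mt-Co1, mt-Cytb, mt-Rnr2, mt-Nd1, mt-Rnr1, mt-Nd2, mt-Nd4, mt-Nd5 and mt-Nd6. How well the cDNA kit, SMART-Seq HT, captures the rRNAs and each mRNA was not tested. The order is thus one of FPKM and need not be one of RNA amounts. mt-Co1 was 2.09 times mt-Cytb and above it in 6 of 6 libraries, but mt-Cytb and mt-Rnr2 were not separated, with mt-Cytb the higher in 2 of 6. Divided by unshared windows alone, as if every read lay there, mt-Nd4 gave 71.5 ± 13.2 reads per window (SD, n = 6). That was more than mt-Cytb at 65.96 ± 10.6, mt-Nd1 at 54.4 ± 10.1 and mt-Nd2 at 34.6 ± 5.44, whereas over all windows mt-Nd4 had 27.5 ± 5.10 and stood below all 3. Among the 7 mRNAs outside or partly inside the stretch mt-Co1 stayed first either way, at 225 ± 37.6 and 135 ± 22.6 reads per window. Duplicates had been removed before mapping, and what this did to genes with many reads per window was not tested. The values over unshared windows are upper limits, since some reads may come from shared ones, and they were not set side by side for the 6 inside genes, 5 of which have at most 6 such windows.

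**Figure D3:**
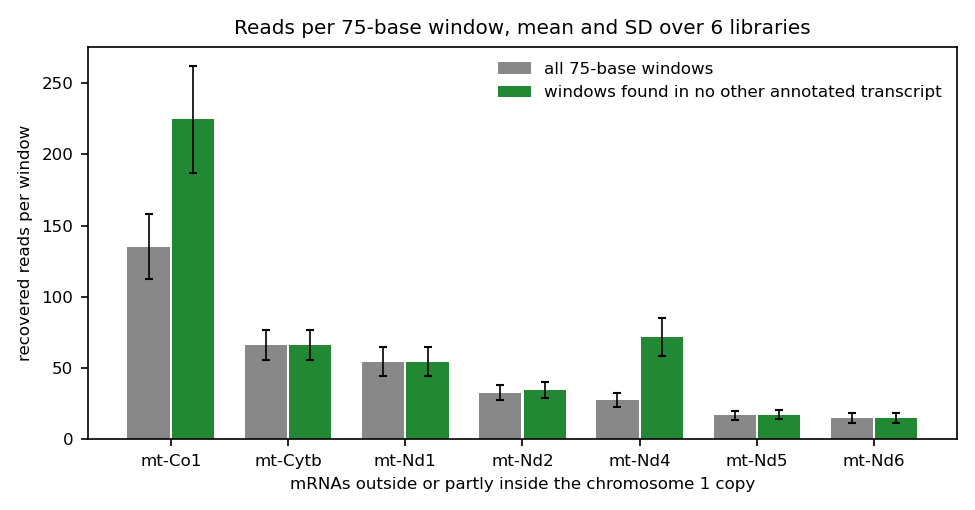
Recovered reads per window of 75 bases for the 7 mRNAs outside or partly inside the stretch copied to chromosome 1, as mean and SD (error bars) over 6 libraries, over all windows (grey) or over windows found in no other annotated transcript (green). mt-Nd4 moves from 27.5 to 71.5 reads per window and mt-Co1 from 135 to 225, while mt-Cytb, mt-Nd1 and mt-Nd6 do not move.

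The question of the study's comparison was what bezafibrate did to these cells. No mtDNA gene was called between bezafibrate and untreated libraries, 0 of the 31 that passed the filter, where 1 of all 11277 genes tested, or 0.00887%, was called. At an unadjusted p under 0.05 there were 5 mtDNA genes and 472 genes in all, and 3 mtDNA genes without mt-Atp8 and mt-Ti, which passed the filter only through the group where they were high. Of the 3 left, mt-Ta and mt-Tv each reached an FPKM of 1 in 3 untreated libraries and 1 bezafibrate library. Of the 13 mRNAs, 12 had a negative log2 difference (bezafibrate minus untreated), and the median was -0.23, against -0.01 over all genes tested. The direction of single mRNAs changed with the setting, as 11 of 13 were negative after rescaling to TPM and 9 of 13 with array weights. Without untreated M_1 and bezafibrate F_1, 9 of the 12 tested were negative. With quantile scaling, which keeps only a gene's rank in its library, mt-Nd3 and mt-Nd4 were positive and the others except mt-Co1 were negative. mt-Co1 lay at -1.5e-15, which is rounding error, since its ranks were alike in both groups. In 3 of the 13 mRNAs and 2 tRNAs every bezafibrate library lay below every untreated one, where 4.13% of all genes tested did, and in 1 tRNA every one lay above, where 4.29% did. Without mt-Atp8 and mt-Ti, whose separation the filter built in, 2 mRNAs and 2 tRNAs lay below and 0 above. mt-Ta was 1 of these tRNAs, and its passing of the filter also rested on the untreated libraries. Among the marker genes, 13 of 15 of endothelium (median -0.15), 10 of 10 of astrocytes (-0.18), 9 of 10 of pericytes and smooth muscle (-0.18) and 10 of 10 of oligodendrocytes (-0.24) also had a negative difference, as did 16 of 17 immediate early genes (-0.24), none of them called. Those of ependyma and choroid plexus were positive in 10 of 11 (0.24), and their sum did not overlap between the groups, 364 to 418 FPKM in untreated and 419.6 to 954 in bezafibrate libraries. Nearly all of it was Ttr, the transthyretin of choroid plexus, and without Ttr the sums overlapped, at 14.6 to 29.5 and 22.6 to 34.6 FPKM. The summed reads relative to the library size behind the FPKM were 0.9504, 1.03 and 1.09 in untreated and 1.06, 0.888 and 0.897 in bezafibrate libraries, and after rescaling to the summed reads the median of the mRNAs was -0.13 and that of all genes 0.08. The part of these measures in the mRNA differences was not tested. In bulk RNA of a pool, fewer cells of a type and less RNA per cell cannot be told apart.

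The rRNAs form the small (mt-Rnr1, 12S) and large (mt-Rnr2, 16S) subunits of the mitochondrial ribosome. mt-Rnr1 (chrM:70-1024) had 1916, 2268 and 2629 FPKM in untreated and 2165, 1585 and 1712 in bezafibrate libraries, giving a log2 difference of -0.32 with a standard error (SE) of 0.20. mt-Rnr2 (chrM:1094-2675) had 3023, 3693 and 3599 in untreated and 3459, 2704 and 2815 in bezafibrate libraries, a difference of -0.20 (SE 0.18). For both rRNAs the groups overlapped, and the bezafibrate female pool lay with the untreated pools while both bezafibrate male pools lay below all untreated ones. The ratio of mt-Rnr2 to mt-Rnr1 was 1.58, 1.63 and 1.37 in untreated and 1.60, 1.71 and 1.64 in bezafibrate libraries, lowest in untreated M_1.

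Complex I, the NADH dehydrogenase that takes electrons from NADH, has the mt-Nd subunits. mt-Nd1 (chrM:2751-3707) stood at 3198, 2463 and 3192 FPKM in untreated and 2512, 1939.6 and 2504 in bezafibrate libraries, giving a log2 difference of -0.35 (SE 0.19). mt-Nd2 (chrM:3914-4951) stood at 1905, 1473 and 1767 and at 1455, 1281 and 1638 FPKM, a difference of -0.23 (SE 0.18). In both genes the groups overlapped, since untreated F_2 lay below at least 1 bezafibrate library. mt-Nd5 (chrM:11742-13565) was among the 3 mRNAs whose groups did not overlap, at 1042, 780.9 and 998 FPKM in untreated and 769, 722 and 735 in bezafibrate libraries, a difference of -0.33 (SE 0.16, limma adjusted p = 0.999). The gap between its groups, from 769 to 780.9, was small beside the range within the untreated group.

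mt-Nd6 (chrM:13552-14070) is the only mRNA of the minus strand and overlaps mt-Nd5 by 14 bases on the opposite strand. It had 880.03, 575 and 792 FPKM in untreated and 540.3, 552 and 653 in bezafibrate libraries, giving a log2 difference of -0.35 (SE 0.20) with overlapping groups. Its ratio to mt-Nd5 was 0.844, 0.737 and 0.794 in untreated and 0.702, 0.765 and 0.889 in bezafibrate libraries, with overlapping groups. The library kit does not mark strand, and reads of mt-Nd6 and of plus-strand RNA over its span cannot be told apart.

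The remaining subunits of complex I lie partly or wholly in the copied stretch. mt-Nd4 (chrM:10167-11544) had 1677, 1179.7 and 1494 FPKM in untreated and 1176, 1159 and 1486 in bezafibrate libraries, giving a log2 difference of -0.18 (SE 0.20). mt-Nd4l (chrM:9877-10173) had 23.3, 16.4 and 22.3 and then 13.1, 19.6 and 19.9 FPKM, a difference of -0.23 (SE 0.21). Groups overlapped in both, and untreated F_1 was the highest library. mt-Nd3 (chrM:9459-9806), at 3.29, 3.06 and 2.32 FPKM in untreated and 3.51, 2.70 and 4.28 in bezafibrate libraries, was the only mRNA with a positive difference, 0.20 (SE 0.19). It rested on 15 to 28 reads a library and its groups overlapped.

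Complex III passes electrons on to cytochrome c, and mt-Cytb, cytochrome b, is its only mtDNA-encoded subunit. mt-Cytb (chrM:14145-15288) had 3906, 3029 and 3528 FPKM in untreated and 2872, 2639.8 and 3420.1 in bezafibrate libraries, giving a log2 difference of -0.23 (SE 0.19). The groups overlapped, with bezafibrate M_2 above untreated F_2.

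Complex IV, cytochrome c oxidase, hands electrons to oxygen, and mt-Co1 carries its catalytic centre. mt-Co1 (chrM:5328-6872) had 8300.4, 6554 and 7585 FPKM in untreated and 6071, 5724 and 6219 in bezafibrate libraries. All 3 bezafibrate libraries lay below all untreated ones, and the difference of -0.31 (SE 0.18) was not called (limma adjusted p = 0.999). With quantile scaling, where a value depends only on a gene's rank in its library, the difference was -1.5e-15. The ranks of mt-Co1 were alike in both groups, so that scaling could not show a change in its level. mt-Co2 (chrM:7013-7696), which receives electrons from cytochrome c, had 144, 115 and 129 and then 100.8, 116 and 121 FPKM, a difference of -0.20 (SE 0.15). mt-Co3 (chrM:8607-9390) had 51.8, 31.4 and 40.0 and then 31.2, 41.3 and 40.6 FPKM, a difference of -0.10 (SE 0.21). Groups overlapped in mt-Co2 and mt-Co3, and the value of mt-Co3 turned positive, at 0.02, without untreated M_1 and bezafibrate F_1.

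Complex V is the ATP synthase, with mt-Atp6 in its proton channel and mt-Atp8 as a small membrane subunit. mt-Atp6 (chrM:7927-8607) had 74.2, 45.7 and 61.8 FPKM in untreated and 36.7, 63.3 and 45.4 in bezafibrate libraries, giving a log2 difference of -0.32 (SE 0.25) with overlapping groups. mt-Atp8 (chrM:7766-7969) had 1.71, 1.65 and 2.38 FPKM and then 0.817, 0.922 and 0.522, a difference of -0.73 (SE 0.20, limma adjusted p = 0.986). Its groups did not overlap, but it rested on 2 to 9 reads a library. It passed the filter only through the untreated libraries, so that a difference was built into its selection.

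**Figure D4:**
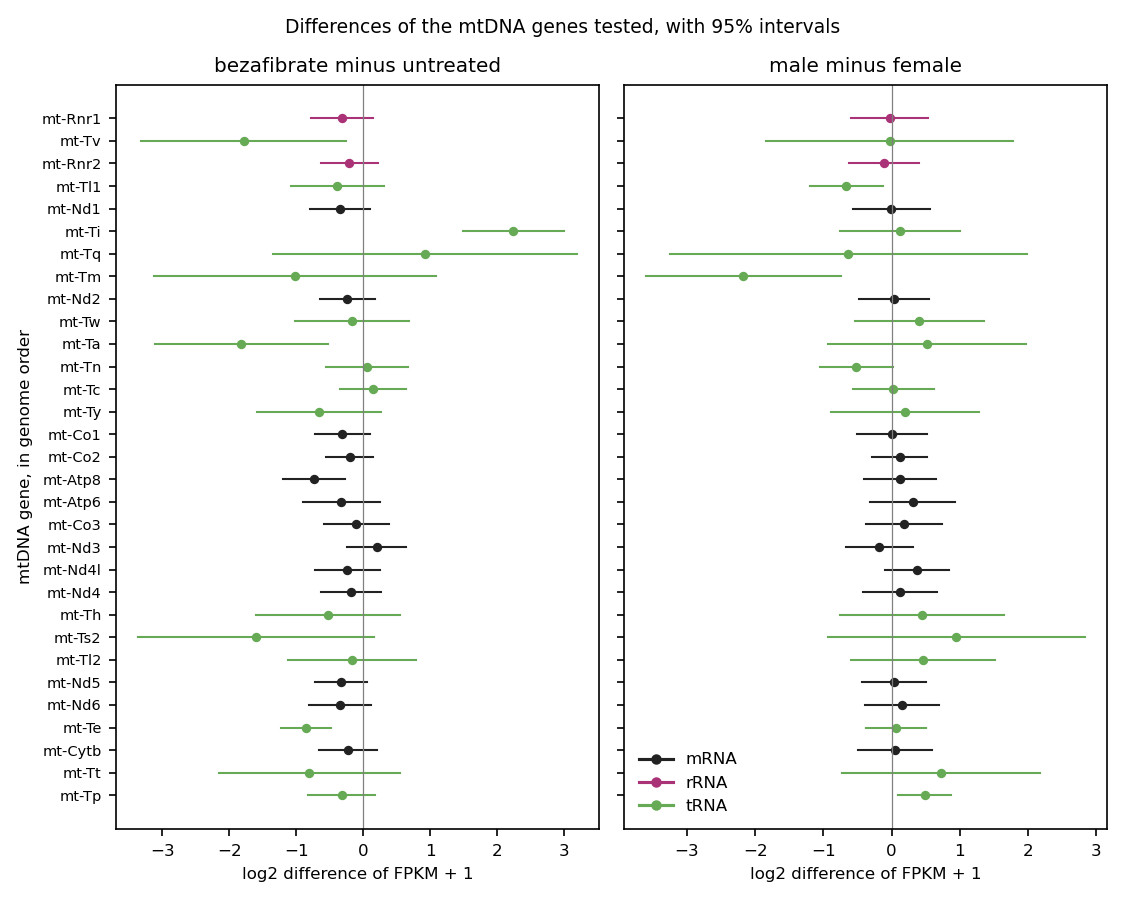
Log2 difference of FPKM + 1 with its 95% interval from limma for the 31 mtDNA genes tested, in genome order, for bezafibrate minus untreated (left) and male minus female with treatment as covariate (right), black for mRNAs, purple for rRNAs and green for tRNAs. Most mRNAs lie left of 0 in the left panel with intervals that cross 0, and the widest intervals belong to tRNAs.

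One library bore on the spread of the mRNAs. Untreated F_1 was the highest of the 6 libraries in 11 of the 13, among them all 7 outside or partly inside the copied stretch, and the lowest value was in bezafibrate M_1 for 6 and bezafibrate F_1 for 5. The 7 erythrocyte markers summed to 298 FPKM in untreated F_1 and 45.5 to 149 in the other 5 libraries, and the 10 astrocyte markers to 67.1 and 30.8 to 56.3. Single markers of both lists peaked elsewhere, as Alas2 and Gja1 did in bezafibrate M_2. The endothelial markers did not peak in untreated F_1, at 10298 FPKM there and 8965 to 14088 in the others. Nor did those of pericytes and smooth muscle, at 378 and 247 to 387. The part of these markers in the mRNA levels was not tested. Without untreated F_1 the median difference of the mRNAs was -0.15, without untreated F_2 it was -0.36, and without the 2 libraries that stood apart it was -0.16. The share of all recovered reads that came from mtDNA was 3.56%, 2.83% and 3.06% in untreated and 2.604%, 2.73% and 3.08% in bezafibrate libraries. The groups overlapped in this share, with untreated F_1 highest.

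Within mtDNA the groups overlapped in the share of each class of RNA. Capture of each class by the cDNA kit was not tested, so these are shares of reads and need not be shares of RNA. mRNAs took 75.9% ± 4.07 of mtDNA reads in untreated and 75.4% ± 2.67 (SD, n = 3 each) in bezafibrate libraries, rRNAs 23.9% ± 4.08 and 24.4% ± 2.69, and tRNAs 0.180% ± 0.00851 and 0.177% ± 0.0177. mt-Co1 alone held 34.0% to 37.9% of mtDNA reads in every library. The libraries varied more in rRNA against mRNA than the groups did. There were 0.243, 0.382 and 0.327 rRNA reads per mRNA read in untreated and 0.377, 0.315 and 0.283 in bezafibrate libraries, and untreated F_1, which was highest in most mRNAs, was lowest here.

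The proportions among the 7 high mRNAs differed in bezafibrate M_2 from the other 5 libraries, a pattern picked out after the values were seen. The ratio of mt-Cytb to mt-Co1 was 0.550 in that library and 0.461 to 0.473 in the others. Of the reads of the 7 mRNAs, mt-Cytb took 18.3% there and 16.2% to 16.6% elsewhere, mt-Nd4 9.59% and 7.81% to 8.75%, and mt-Nd2 7.96% and 7.29% to 7.60%. mt-Co1 took 45.02% there and 47.0% to 48.6% elsewhere, and mt-Nd5 6.28% and 6.84% to 7.30%. For mt-Nd1 and mt-Nd6 the library lay within the range of the others. In the same library Ttr had 919 FPKM, against 349 to 540.4 in the other 5, and the 11 other markers of ependyma and choroid plexus summed to 34.6 FPKM, against 14.6 to 29.5. None of these markers was at 0 in every library, and their part in the proportions was not tested.

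**Figure D5:**
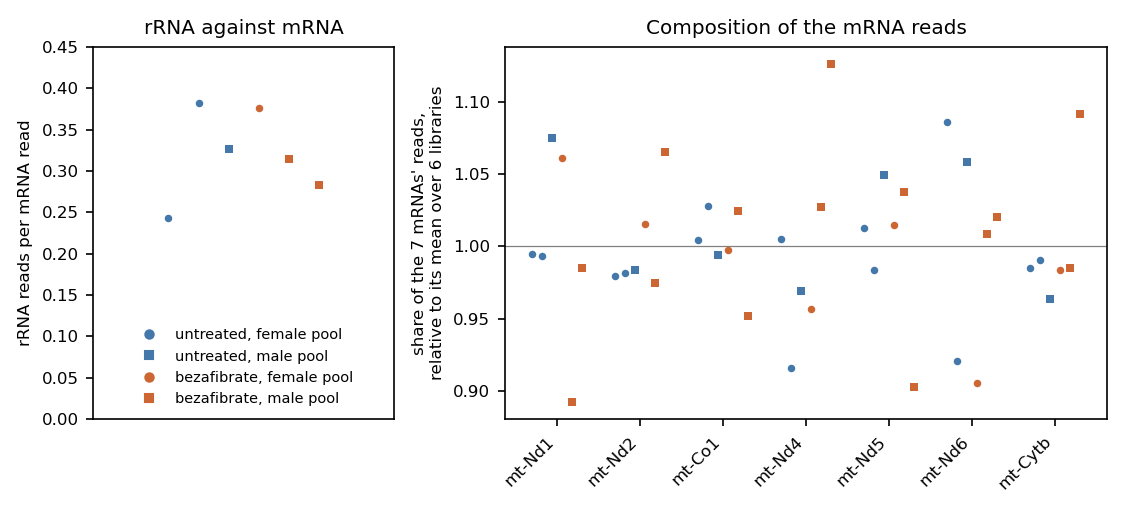
Left, rRNA reads per mRNA read of mtDNA in each library; right, the share of each of 7 mRNAs among their summed reads, divided by its mean over the 6 libraries (points as labelled, blue untreated and orange bezafibrate, circles female and squares male pools). Bezafibrate M_2 is the highest point for mt-Nd2, mt-Nd4 and mt-Cytb and the lowest for mt-Co1 and mt-Nd5.

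The tRNAs were measured thinly. Of the 22, 21 are shorter than a read and mt-Tl1 is as long as one, at 75 bases, so a read of full length cannot lie within the 21. Whether their reads were shorter or reached into neighbouring RNA was not examined. Over all 6 libraries, the 17 tRNAs outside the copied stretch had 5976 reads and the 5 inside it 11. In all, 3 tRNAs (mt-Tf, mt-Td and mt-Tg) were listed at 0 in every library, and 6 did not pass the filter, 5 of them inside the stretch, with 4 reads at most. tRNAs of the minus strand took 61.9% to 73.3% of tRNA reads, although 8 of the 22 lie there. A single gene made up most of each side. Over all libraries mt-Tp held 2410 of 4019 minus-strand reads, and mt-Tl1 1310 of 1968 plus-strand reads. Since strand is not marked, the reads of minus-strand tRNAs cannot be told apart from plus-strand RNA that spans the same bases.

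The tRNAs with most reads, or with the groups apart, are shown with the anticodon in capitals, found as the middle of a 7-base loop on a stem of 5 base pairs, of which mt-Tl1 pairs 4. They carry proline (mt-Tp, chrM:15356-15422, minus), leucine (mt-Tl1, chrM:2676-2750, plus), cysteine (mt-Tc, chrM:5192-5257, minus), glutamate (mt-Te, chrM:14071-14139, minus), isoleucine (mt-Ti, chrM:3706-3774, plus) and alanine (mt-Ta, chrM:5018-5086, minus).

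mt-Tp: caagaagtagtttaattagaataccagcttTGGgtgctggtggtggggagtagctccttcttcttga

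mt-Tl1: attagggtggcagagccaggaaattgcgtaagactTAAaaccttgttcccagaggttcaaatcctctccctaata

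mt-Tc: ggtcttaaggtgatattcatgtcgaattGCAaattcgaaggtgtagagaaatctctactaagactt

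mt-Te: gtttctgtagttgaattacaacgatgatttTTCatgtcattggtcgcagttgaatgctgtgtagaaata

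mt-Ti: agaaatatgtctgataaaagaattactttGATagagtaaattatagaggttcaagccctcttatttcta

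mt-Ta: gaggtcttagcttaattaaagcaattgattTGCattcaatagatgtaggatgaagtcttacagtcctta

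mt-Tp and mt-Tl1 together gave 57.3% to 67.7% of tRNA reads. mt-Tp had 326, 304 and 408 FPKM in untreated and 207, 326 and 306 in bezafibrate libraries, and mt-Tl1 had 237, 178 and 111 and then 157, 99.1 and 135. Groups overlapped in both, as they did in mt-Tc at 90.4, 70.6 and 88.9 FPKM in untreated and 96.0, 69.1 and 115 in bezafibrate libraries. mt-Te, which lies between mt-Nd6 and mt-Cytb, had 50.5, 43.9 and 57.8 FPKM in untreated and 29.8, 23.9 and 29.3 in bezafibrate libraries. Every bezafibrate library lay below every untreated one, on 54 to 74 reads against 35 to 38. The log2 difference was -0.85 (SE 0.16), with a limma unadjusted p of 0.00080 and an adjusted p of 0.962, which did not pass, and it lay between -0.99 and -0.74 under all 20 other settings.

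mt-Ti had the smallest adjusted p of the mtDNA genes, 0.407 in limma, with 0, 1 and 0 reads in untreated and 4, 7 and 9 in bezafibrate libraries and a log2 difference of 2.25 (SE 0.32). It shares 2 bases with mt-Nd1 and 3 with mt-Tq, and passed the filter only through the bezafibrate libraries, so that its difference too was built into its selection. mt-Ta had 16, 3 and 6 reads and then 0, 1 and 3, and its groups did not overlap in FPKM (2.44 to 11.5 against 0 to 2.31). mt-Tv, the valine tRNA between the rRNAs, had 10, 8 and 3 reads and then 0, 6 and 0. Of the other tested tRNAs, mt-Tn, mt-Ty, mt-Tw, mt-Tl2 and mt-Th had 10 to 84 reads a library, and mt-Tq, mt-Tm, mt-Ts2 and mt-Tt 0 to 22. In all of these the treatment groups overlapped.

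Males and females were compared with treatment in the fit. No mtDNA gene was called, 0 of 31, where 3 of all genes tested, or 0.0266%, were called, and at an unadjusted p under 0.05 there were 3 mtDNA genes and 331 genes in all. The median log2 difference of the 13 mRNAs (male minus female) was 0.12, with 11 positive, and the rRNAs had -0.03 (mt-Rnr1) and -0.11 (mt-Rnr2). In 2 of the 31, mt-Tl1 and mt-Tm, every male pool lay below every female pool, where 3.94% of all genes did, and in 0 every one lay above, where 4.0% did. mt-Tl1 had 157 to 237 FPKM in female and 99.1 to 135 in male pools, a difference of -0.66 (SE 0.22, limma adjusted p = 1.00). mt-Tm, the methionine tRNA, had 7, 5 and 14 reads in female pools and 3, 0 and 0 in male pools, a difference of -2.17 (SE 0.59), and without untreated M_1 it was called (limma adjusted p = 0.0138). In that fit both remaining male pools had 0 reads, the gene passed the filter only through female pools, and the contrast rested on 1 female against 2 male bezafibrate pools, so the call was built into its selection. mt-Tp, at 207 to 326 FPKM in female and 306 to 408 in male pools, differed by 0.49 (SE 0.16, limma unadjusted p = 0.0209) with pools that overlapped.

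mtDNA is copied, transcribed and processed by proteins of nuclear genes, and these were low in the table. Of the 26 tested of 34 listed factors of mitochondrial transcription and RNA processing, 19 had a positive and 7 a negative log2 difference under treatment, none was called, and the median was 0.05, against -0.01 over all genes. Their summed level was 129 to 135 FPKM in untreated and 142 to 161 in bezafibrate libraries, without overlap. In 7 of the 26 every bezafibrate library lay above every untreated one, beside 4.29% of all genes, and 1 of the 7, Mtif3, a translation initiation factor, passed the filter only through the bezafibrate libraries. Mterf2, also of the 7, had 0.454, 1.38 and 0.738 FPKM in untreated and 1.43, 1.96 and 1.82 in bezafibrate libraries, so it passed mainly through the latter. Polrmt, the polymerase that transcribes mtDNA, was among the 7 as well. It had 2.30, 2.53 and 1.67 FPKM in untreated and 3.46, 3.73 and 4.07 in bezafibrate libraries. The difference of Polrmt was 0.59 (SE 0.17) with a limma adjusted p of 0.986. Mtpap, the poly(A) polymerase of mitochondrial mRNAs, was another, at 14.7, 17.6 and 17.2 FPKM and then 21.04, 20.5 and 22.4, a difference of 0.35 (SE 0.13, limma adjusted p = 0.999).

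The other named factors had overlapping groups or were too low to test. Tfam, which packages mtDNA, differed by 0.00 (SE 0.22), and Tefm, a factor of transcript elongation, also by 0.00 (SE 0.27). Tfb2m, which opens the promoter with the polymerase, differed by 0.42 (SE 0.22), Elac2, which cuts the 3′ ends of tRNAs, by 0.33 (SE 0.22), and Lrpprc, which stabilises mitochondrial mRNAs, by 0.13 (SE 0.20). Trmt10c, a subunit of mitochondrial RNase P, differed by 0.01 (SE 0.20) and Pnpt1, which degrades mitochondrial RNA, by -0.07 (SE 0.30). Slirp, the partner of Lrpprc, at 0.181 to 0.513 FPKM, and Fastkd5, which helps to process mRNAs not flanked by tRNAs, at 0.424 to 1.25, did not pass the filter.

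The nuclear genes for partner subunits gave medians near that of all genes. It was 0.09 for 36 genes of complex I (26 positive), 0.00 for 9 of complex III (5 positive), 0.06 for 12 of complex IV (7 positive) and -0.05 for the 16 tested of complex V (6 positive). For mtDNA replication and upkeep it was 0.06 (12 positive of 18), and for charging and modification of mitochondrial tRNAs 0.05 (17 positive of 28). None of these genes was called.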

How the data were processed

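The deposited table gives FPKM for 54532 genes in 6 libraries, with positions, strands, lengths and biotypes. Per the labels' protocols, cDNA was made with SMART-Seq HT, libraries with Nextera XT, single-end reads had 75 bases, and duplicates were removed before mapping with Salmon. The build GRCm38 comes from the submitters' processing notes. The annotation, the version of Salmon, the use of strand and the treatment of multi-mapping reads are not stated in either. The recovered reads were whole, although Salmon's estimated counts need not be.

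For the untreated male pool, column and title are numbered differently, and the sample's description settled the match. log2(FPKM + 1) was fitted with limma 3.58.1 (R 4.3.3, lmFit and eBayes with trend, two-sided) for genes that reached an FPKM of 1 in 3 or more libraries, without covariate for treatment and with treatment as covariate for sex. The procedure was tested on simulated data. Copies were found as windows of 75 bases shared with other GENCODE M21 transcripts. All 13 mRNAs and 2 rRNAs were named, and tRNAs that passed the filter. Off mtDNA, 11 factors of transcription and processing were named. The members and lists were chosen with earlier results of these data known. Alternatives covered pseudocount, filter, scaling, covariates, weights, voom and left-out libraries.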

Additional observations from a re-analysis of the deposited data

Results flagged for a closer look

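In 5 mtDNA genes every bezafibrate pool of one sex lay on the opposite side of the untreated pools from every pool of the other sex. Each sex has 3 pools, and the difference between the sexes was not tested. Of the 31 mtDNA genes tested, 4 showed it (12.9%), against 41.6% of all genes tested, and mt-Tk had not passed the filter. The male minus the female log2 difference of bezafibrate against untreated was -2.89 for mt-Tm (0 to 14 reads a library), -2.31 for mt-Tk (0 to 2 reads), -2.01 for mt-Tl2 (16 to 47 reads) and 1.65 for mt-Tw (18 to 59 reads). For mt-Co3, the only mRNA among them, it was 0.40 on 439 to 817 reads, from -0.36 in females and 0.03 in males.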

How the results depend on the processing

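No mtDNA gene was called for treatment under any of the 20 other settings, and the smallest adjusted p among them was 0.106. The names F_1 and M_1 occur in both groups but name pools of separate animals, whose deviations correlated at -0.36 and -0.30. With the replicate block the median of the 13 mRNAs moved from -0.23 to -0.44, and 0 mtDNA genes were called. Other settings kept it between -0.36 and -0.08. The median of all genes, -0.01, became 0.09 after rescaling to TPM and 0.10 with voom, added after seeing the data. Values that turned direction were those of mt-Co3 (0.0117 rescaled to TPM, 0.00479 rescaled to summed reads, 0.14 with array weights, 0.0196 without the 2 libraries that stood apart, and -0.277 to 0.0752 with a library left out), mt-Nd4 and mt-Rnr2 (0.0529 and 0.0457 with quantile scaling), mt-Atp6 (0.0103 with array weights), mt-Nd4l (0.0206 with array weights, 0.0128 without the 2 libraries), mt-Tp (0.00505 without the 2 libraries) and mt-Tc (-0.14 with the block, -0.0235 to 0.341 with a library left out). The cause was not tested. For sex, 0 to 1 mtDNA genes were called with a library left out, the 1 being mt-Tm at -3.62 without untreated M_1, where it passed the filter only through female pools and 1 female bezafibrate pool carried the contrast. Against untreated, the mtDNA share of FPKM was 0.918 percentage points lower and 0.385 to 1.35 lower with a library left out. Count models were not run, since the files hold FPKM. Low reads limit most tRNAs and, among the mRNAs inside the copied stretch, mt-Atp8 (2 to 9 reads a library) and mt-Nd3 (15 to 28). The other mRNAs inside it had 70 to 1986 reads a library and share nearly all their windows with other transcripts.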
